A study of Mus musculus with 6 samples.

Results

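The genes that encode the CSF1 and GM-CSF ligands and receptors were examined in chronic stroke infarcts. The set holds 7 genes, found by their symbols, of 46078 genes in the count tables. These are the CSF1 receptor ligands *Csf1* and *Il34*, their receptor *Csf1r*, the GM-CSF receptor α chain *Csf2ra*, the β chains *Csf2rb* and *Csf2rb2*, and the G-CSF receptor *Csf3r*. Libraries of messenger RNA came from 3 infarcts and 3 contralateral cortices of wild type C57BL/6J mice, listed with an age of 3 months and a time point of 7 weeks after stroke. Per the study's methods, stroke was produced by occlusion of the distal middle cerebral artery combined with hypoxia, infarcts were identified by eye and cut out, and the matching region of the other hemisphere was taken as the control. No treatment is listed for either region, and all 6 libraries share genotype, strain, age and time point. The contralateral cortices therefore came from animals that had also had a stroke. The records do not say which infarct and cortex came from the same mouse, or whether the 3 libraries of a region came from separate mice, so *p* values measure only the spread between these samples. Counts on genes ranged from 11943570 to 19933962 per library.

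Colony-stimulating factors control the production, survival and activation of myeloid cells. CSF1 and IL-34 bind the same receptor tyrosine kinase, CSF1R, which microglia and most tissue macrophages need to survive. In the healthy forebrain, IL-34 is made largely by neurons, whereas CSF1 comes largely from glia. GM-CSF, IL-3, and IL-5 each bind an α chain of their own, and the resulting complexes signal through the shared common β chain encoded by *Csf2rb* and through JAK2 and STAT5. Mice carry an additional β chain, encoded by *Csf2rb2*, which serves IL-3. G-CSF signals through *Csf3r*, the receptor known for its role in neutrophil production.

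All 7 genes passed the filter on low counts, which kept 15554 genes, and each had at least 12 counts in every library. *Csf2rb2* passed it through the infarcts, as its cortices alone would not have met it. Of the 7 genes, 6 rose in infarcts and 1, *Il34*, fell. Over all tested genes, 25.7% were higher and 20.9% were lower in infarcts under the same rule, which asked for a change of over 2-fold in addition to an adjusted *p* below 0.05. The median log2 fold change of the 7 genes was 2.87, beside 0.030 over all tested genes. For each of the 7 genes, the 3 infarcts and the 3 contralateral cortices did not overlap. Over all tested genes, 72.3% likewise showed no overlap. Levels below are CPM, the counts of a gene scaled to a fixed library total, after TMM scaling by the trimmed mean of log ratios between libraries, and are given as mean ± SD with *n* = 3 per region.

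**Figure D1:**
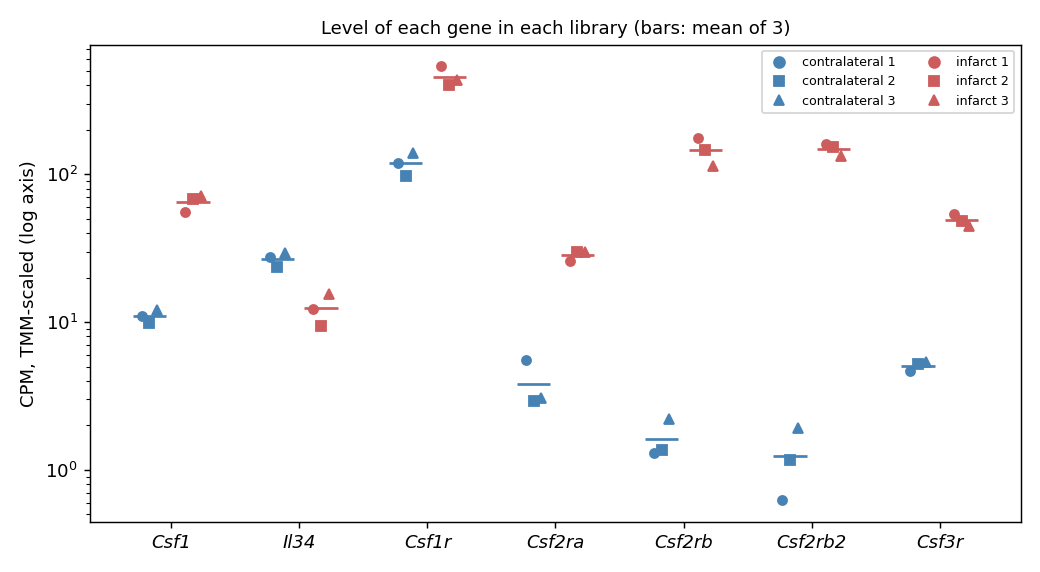
Level of each gene in each library, as TMM-scaled CPM on a log axis, for 3 contralateral cortices and 3 infarcts, with a bar at the mean of each region. *Il34* is the gene whose infarcts lie below its contralateral cortices, and *Csf2rb* and *Csf2rb2* show the widest gap between regions.

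*Csf1* (ENSMUSG00000014599, chromosome 3, 107741048 to 107760469, minus strand, GRCm38) encodes the broadly acting ligand CSF1. It stood at 55.7, 68.1, and 71.2 CPM in infarcts 1, 2, and 3 and at 10.97, 9.90, and 12.1 CPM in contralateral cortices 1, 2, and 3. All 3 infarcts lay far above all 3 cortices, and the cortices were close to each other. Means were 65.0 ± 8.20 CPM in infarcts and 10.99 ± 1.10 CPM in cortices, a rise of 5.92-fold (log2 fold change 2.57, SE 0.17; edgeR quasi-likelihood test, Benjamini-Hochberg adjusted *p* = 1.44e-06). *Adam17*, the protease known to release membrane-bound CSF1 from the cell surface, rose from 22.4 ± 1.96 to 172 ± 27.1 CPM (log2 fold change 2.94, adjusted *p* = 6.14e-07 in edgeR). *Rhbdf2*, which encodes iRhom2, a partner that ADAM17 needs to reach the surface, rose from 0.66 ± 0.15 to 9.26 ± 1.53 CPM (log2 fold change 3.76, adjusted *p* = 4.45e-06 in edgeR). Both listed genes of CSF1 shedding were thus called higher. *Rhbdf2*, with 16, 9, and 6 counts in cortices 1, 2, and 3, passed the filter through the infarcts. Its call therefore gives no support to a direction. Markers of cell types known to make CSF1 were mixed. All 5 fibroblast markers rose, and their sum ranged from 4667 to 5786 CPM in infarcts and from 133 to 169 CPM in cortices. Of 5 astrocyte markers, 2 rose (median log2 fold change 0.59). Their sum ranged from 2552 to 3399 CPM in infarcts and from 1062 to 1232 CPM in cortices, and the difference lay largely in *Gfap*, the filament gene of reactive astrocytes, at 1080.0 ± 230.4 and 38.6 ± 9.61 CPM, and *Aqp4*, at 1032 ± 166 and 323 ± 3.57 CPM. *Aldh1l1* and *Slc1a3* had log2 fold changes of -0.49 and -0.37 and were not called. Of 5 oligodendrocyte markers 2 rose (median log2 fold change 0.99, sums 3897 to 6362 CPM in infarcts and 2019 to 2426 CPM in cortices), and of 5 endothelium markers 3 rose (median 1.23, sums 295 to 434 CPM and 194 to 211 CPM). The part of these cells in the rise of *Csf1* was not tested.

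*Il34* (ENSMUSG00000031750, chromosome 8, 110741829 to 110805924, minus strand, GRCm38) encodes the alternative CSF1R ligand. It stood at 12.2, 9.47, and 15.5 CPM in infarcts 1, 2, and 3 and at 27.8, 23.6, and 29.3 CPM in contralateral cortices 1, 2, and 3. Each infarct was below each cortex, and infarct 2 was the lowest library. Means were 12.4 ± 3.02 and 26.9 ± 2.92 CPM, so *Il34* was 2.17-fold lower in infarcts (log2 fold change -1.12, SE 0.21; edgeR quasi-likelihood test, Benjamini-Hochberg adjusted *p* = 0.00106). The fold sits close to the threshold. Without infarct 2 the log2 fold change was -0.93 (adjusted *p* = 0.00404 in edgeR), and with scaling by library totals it was -0.91, both short of the required fold. Against the null hypothesis of a change of at most 2-fold, the adjusted *p* was 0.274 (glmTreat of edgeR). The direction held in all 17 alternatives, between -1.30 and -0.91 on the log2 scale. Of the exon bases of *Il34*, 4.95% are overlapped by genes on the other strand, *Gm15894* and *Gm15895*, which held at most 20 counts in any library.

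Neuron markers moved with *Il34*. The summed level of 10 neuron markers was 657, 986, and 1787 CPM in infarcts 1, 2, and 3 and lay between 9543 and 10290.0 CPM in contralateral cortices, and 9 of the 10 markers fell, with a median log2 fold change of -2.98. The drop of *Il34* was smaller. Its log2 level, taken as log2(CPM + 0.5), minus the mean log2 level of the neuron markers was -1.15, -2.22, and -2.44 in infarcts 1, 2, and 3 and between -3.99 and -3.85 in cortices. All 3 infarcts thus had more *Il34* per neuron marker signal than any cortex, by 1.96 log2 units on average, although infarct 1 stood apart from the other two. Among infarcts, the library with the least neuron marker signal was infarct 1, whereas the one with the least *Il34* was infarct 2. In bulk tissue, fewer cells of a type and less RNA per cell cannot be told apart. The part of neuron content in the *Il34* result was not tested.

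The opposite changes of the ligands turned their balance. Per kilobase of exon, a scale on which genes can be compared, *Csf1* was 0.146, 0.155, and 0.153 times the level of *Il34* in contralateral cortices 1, 2, and 3. In infarcts 1, 2, and 3 the ratio was 1.70, 2.67, and 1.70. *Il34* was therefore the more abundant ligand transcript in every cortex and *Csf1* in every infarct. The mean log2 ratio was -2.72 ± 0.045 in cortices and 0.98 ± 0.37 in infarcts, a difference of 3.70. This ratio is taken within a library, so scaling between libraries does not enter it. No test was made of ratios, since an exact permutation test of 3 against 3 libraries cannot give a *p* under 0.1.

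**Figure D2:**
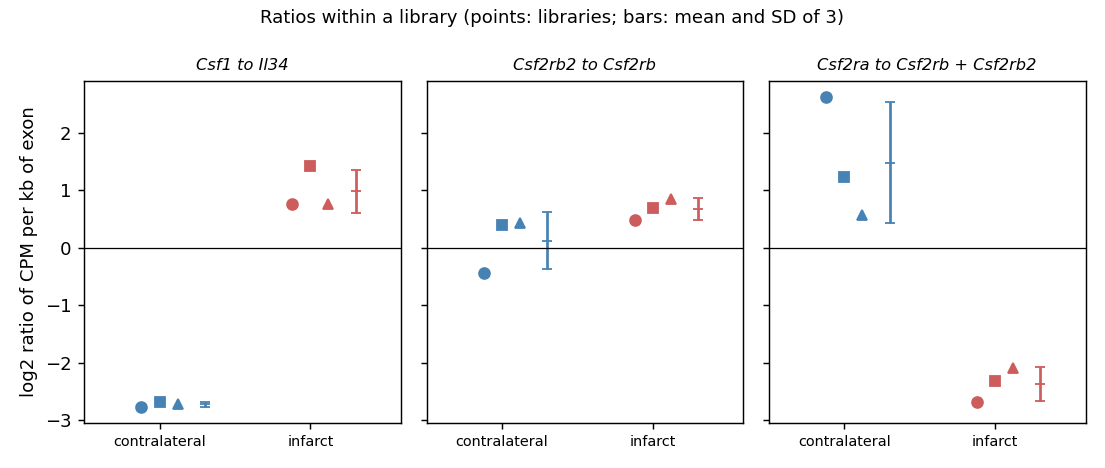
Log2 ratios of CPM per kilobase of exon within each library for 3 pairs of genes or sums, with points for libraries and bars for the mean and SD of 3 per region. The *Csf1* to *Il34* ratio lies below 0 in all 3 cortices and above 0 in all 3 infarcts, while the ratio of *Csf2ra* to the summed β chains does the reverse.

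The receptor *Csf1r* (ENSMUSG00000024621, chromosome 18, 61100598 to 61132149, plus strand, GRCm38) had the most counts of the 7 genes in every library. It stood at 538, 405, and 434 CPM in infarcts 1, 2, and 3 and at 119, 97.7, and 139 CPM in contralateral cortices 1, 2, and 3. The lowest infarct was well above the highest cortex. Means were 459 ± 69.9 and 118 ± 20.7 CPM, a rise of 3.88-fold (log2 fold change 1.96, SE 0.19; edgeR quasi-likelihood test, Benjamini-Hochberg adjusted *p* = 1.40e-05). This was the smallest rise among the 6 genes that rose. Exons of *Hmgxb3* on the other strand overlap 15.1% of the exon bases of *Csf1r*, and the strand setting of the counting is not given in the sources used here. *Hmgxb3* itself had 18.7 ± 2.44 CPM in infarcts and 27.9 ± 3.33 CPM in cortices. The part of this overlap in the *Csf1r* values was not tested.

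The markers of CSF1R-dependent cells did not move alike. The summed level of 8 homeostatic microglia markers ranged from 913 to 942 CPM in infarcts and from 299 to 347 CPM in cortices, and 4 of 8 rose (median log2 fold change 1.27). *P2ry12* and *Siglech*, both defining genes of homeostatic microglia, had log2 fold changes of -0.20 and 0.019 and were not called. The summed level of 8 macrophage and monocyte markers ranged from 763 to 1215 CPM in infarcts and from 38.9 to 47.0 CPM in cortices, and 7 of 8 rose (median log2 fold change 4.13). *Csf1r* lay between the lists. Its log2 level exceeded the mean of the microglia markers by 2.78 ± 0.25 in infarcts and by 1.96 ± 0.19 in cortices, and exceeded the mean of the macrophage and monocyte markers by 3.08 ± 0.26 in infarcts and by 5.20 ± 0.13 in cortices. The regions did not overlap in either difference, one being higher and the other lower in infarcts. In cortices, *Msr1*, *Ms4a7*, *Lyve1*, and *Ccr2* were at 0.45, 0.55, 0.78, and 1.12 CPM and passed the filter through the infarcts. The added 0.5 therefore raised the macrophage and monocyte mean in cortices and lowered the cortex difference. The part of each cell type in the rise of *Csf1r* was not tested.

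**Figure D3:**
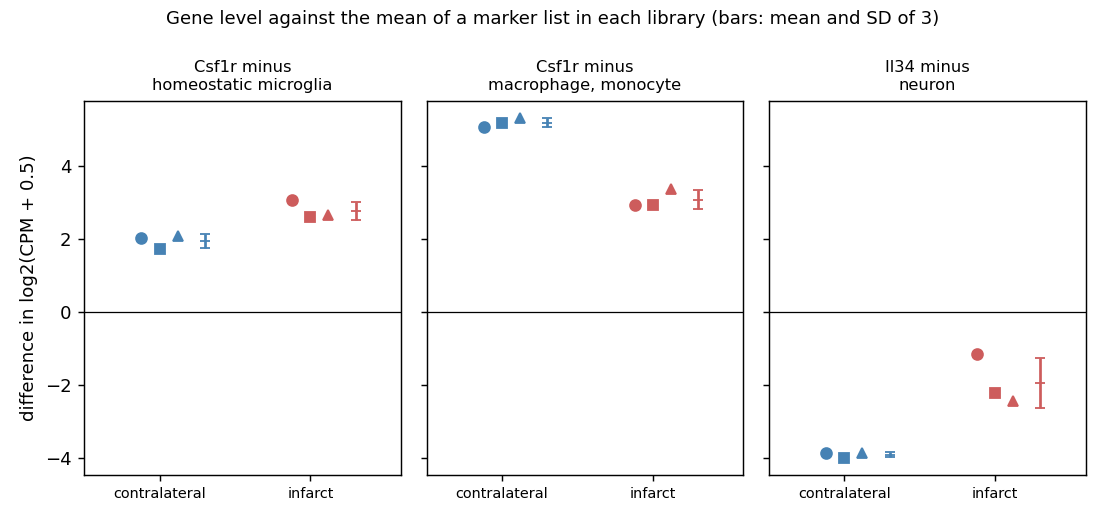
Level of a gene minus the mean level of a marker list in each library, both as log2(CPM + 0.5), with points for libraries and bars for the mean and SD of 3 per region. *Csf1r* is higher in infarcts against microglia markers and lower against macrophage and monocyte markers, while *Il34* against neuron markers is higher in infarcts. Some macrophage and monocyte markers are near the added 0.5 in cortices, which lowers the cortex difference.

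Of 10 transcription factors listed as regulators of *Csf1r* or of macrophage identity, 9 rose in infarcts and 0 fell by edgeR, with a median log2 fold change of 2.99. DESeq2 also called 0 lower, and 1 was lower at an unadjusted *p* under 0.05 at any fold. *Runx1*, a factor of blood cell formation, rose from 2.63 ± 0.41 to 103 ± 13.2 CPM (log2 fold change 5.29). *Spi1*, which encodes PU.1, the master factor of myeloid cells, rose from 0.56 ± 0.10 to 15.6 ± 1.84 CPM (log2 fold change 4.80). Its cortices held 11, 7, and 7 counts, so *Spi1* passed the filter through the infarcts and its fold rests on few cortex reads. *Irf8*, which acts with PU.1 in microglia and dendritic cells, rose from 3.48 ± 1.15 to 95.1 ± 19.6 CPM (log2 fold change 4.75). *Ets2* was the exception, with 40.9 ± 2.97 CPM in infarcts and 61.9 ± 6.63 CPM in cortices and a log2 fold change of -0.60, under the required fold at an adjusted *p* of 0.00545 in edgeR.

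Of 19 genes that carry or restrain the CSF1R signal, 11 rose and 1 fell, with a median log2 fold change of 2.10. *Fgr*, a Src-family kinase of myeloid cells, had 723, 668, and 581 counts in the infarcts against 0, 0, and 1 in the cortices, and was at least 233-fold higher with each cortex set to a floor of 3 counts. *Fgr* passed the filter through the infarcts, and with *Fgr* at that bound the median of the list was 2.10 as well. *Syk*, the kinase recruited by activating adaptors, rose from 3.98 ± 0.58 to 156 ± 31.6 CPM (log2 fold change 5.28), and *Tyrobp*, which encodes the adaptor DAP12, rose from 2.13 ± 0.15 to 58.0 ± 14.4 CPM (log2 fold change 4.76).

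The GM-CSF receptor α chain *Csf2ra* (ENSMUSG00000059326, chromosome 19, 61223957 to 61228429, minus strand, GRCm38) gives the receptor its specificity for GM-CSF. It stood at 26.1, 29.9, and 29.7 CPM in infarcts 1, 2, and 3 and at 5.54, 2.93, and 3.05 CPM in contralateral cortices 1, 2, and 3. The infarcts were close to each other, whereas cortex 1 was the highest of the cortices. Means were 28.6 ± 2.12 and 3.84 ± 1.47 CPM, a rise of 7.32-fold (log2 fold change 2.87, SE 0.26; edgeR quasi-likelihood test, Benjamini-Hochberg adjusted *p* = 9.61e-06). Leaving out any 1 library gave log2 fold changes from 2.70 to 3.24.

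The β chains showed the largest changes of the set. *Csf2rb* (ENSMUSG00000071713, chromosome 15, 78325752 to 78353847, plus strand, GRCm38), the common chain of the GM-CSF, IL-3 and IL-5 receptors, stood at 177, 145, and 114 CPM in infarcts 1, 2, and 3 and at 1.31, 1.37, and 2.22 CPM in contralateral cortices 1, 2, and 3. It rose 91.5-fold, from 1.63 ± 0.51 to 145 ± 31.6 CPM (log2 fold change 6.51, SE 0.27; edgeR quasi-likelihood test, Benjamini-Hochberg adjusted *p* = 1.64e-07). The cortices held 25, 21, and 24 counts, so the contralateral level rests on few reads. *Csf2rb2* (ENSMUSG00000071714, chromosome 15, 78282507 to 78305721, minus strand, GRCm38), the IL-3-specific chain, stood at 161, 152, and 134 CPM in infarcts and at 0.63, 1.17, and 1.94 CPM in cortices. It rose 126-fold, from 1.25 ± 0.66 to 149 ± 13.6 CPM (log2 fold change 6.98, SE 0.32; edgeR quasi-likelihood test, Benjamini-Hochberg adjusted *p* = 2.92e-07). Its cortices held 12, 18, and 21 counts, so *Csf2rb2* passed the filter through the infarcts. It was also kept by a filter of at least 10 counts in every library. Under that filter its log2 fold change was 7.01 (adjusted *p* = 2.66e-07 in edgeR). Both chains were thus near the limit of detection in every cortex and abundant in every infarct.

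The β chains are neighbors on chromosome 15 and close paralogs, which bears on how reads were divided between them. Their coding sequences, from GENCODE M21 transcripts on GRCm38, are 2688 bases for *Csf2rb* and 2634 bases for *Csf2rb2*. Of 2628 aligned bases, 2503 (95.2%) were identical and 125 differed. The 150 bases with the densest differences, 25 in number, are shown 5′ to 3′ because reads over them can be told apart, with capitals marking the bases that differ.
Csf2rb, coding bases 300 to 449: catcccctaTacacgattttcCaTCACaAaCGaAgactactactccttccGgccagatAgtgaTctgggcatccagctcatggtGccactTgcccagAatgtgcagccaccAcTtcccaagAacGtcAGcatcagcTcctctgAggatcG
Csf2rb2, coding bases 303 to 452: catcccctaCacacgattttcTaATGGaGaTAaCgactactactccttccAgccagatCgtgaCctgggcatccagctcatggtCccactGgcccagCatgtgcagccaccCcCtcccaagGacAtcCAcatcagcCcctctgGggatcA
Of all 75-base stretches in the transcripts of *Csf2rb*, 7.15% also occur in *Csf2rb2*, and 10.6% of those of *Csf2rb2* occur in *Csf2rb*. Reads that lie wholly in such stretches align to more than 1 place, and reads of that kind were tallied apart from genes, so the counts may miss a small part of the signal of both genes. Per kilobase of exon, *Csf2rb2* was 1.39, 1.61, and 1.81 times *Csf2rb* in infarcts 1, 2, and 3 and 0.737, 1.32, and 1.34 times in cortices 1, 2, and 3. Infarcts and cortices came close without overlapping. The cortex values rest on 12 to 25 counts per gene, and on raw counts without exon length the mean log2 ratio was 0.0546 in infarcts and -0.49 in cortices.

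The balance of α and β chains also turned. Per kilobase of exon, *Csf2ra* was 6.19, 2.35, and 1.49 times the summed β chains in contralateral cortices 1, 2, and 3. In infarcts 1, 2, and 3 it was 0.156, 0.2001, and 0.236 times that sum. On this scale, the α chain was therefore the more abundant in every cortex and the less abundant in every infarct. On raw counts without exon length, cortex 3 went the other way, while cortices 1 and 2 did not. Cortex 3 held 33 counts of *Csf2ra* beside 24 of *Csf2rb* and 21 of *Csf2rb2*. The mean log2 ratio was 1.48 ± 1.05 in cortices and -2.36 ± 0.30 in infarcts. Without cortex 1, which held the most *Csf2ra* and the least *Csf2rb2*, the contralateral mean was 0.90, the lowest that leaving out a library gave.

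The partners of these chains were scarce. *Il3ra*, the IL-3 receptor α chain, was read 40, 42, and 39 times in infarcts and 7, 0, and 3 times in cortices, and rose with a log2 fold change of 3.72 (SE 0.62; edgeR quasi-likelihood test, Benjamini-Hochberg adjusted *p* = 5.30e-04). It passed the filter through the infarcts. Its log2 fold change was 4.53 without cortex 1 and 3.14 without cortex 2, so the size of the rise rests on few reads. Since the filter was passed through the infarcts, the call of *Il3ra* gives no support to a direction. *Il5ra*, the IL-5 receptor α chain, had 8, 9, and 3 counts in infarcts and 0 in every cortex, and was left out by the filter. Of the ligands, *Csf2*, which encodes GM-CSF, had 3, 0, and 1 counts in infarcts 1, 2, and 3 and 0 in every cortex. *Csf3*, which encodes G-CSF, had 0, 0, and 4 counts in infarcts and 0 in every cortex. *Il3* had 0 counts in all 6 libraries. *Il5* reads numbered 2, 3, and 2 for infarcts and 1, 4, and 0 for cortices. None of these 4 ligands passed the filter, so no difference in them was detectable at this depth. The β chains thus had between 1669 and 2224 counts in each infarct, beside at most 4 for any of these ligands. Markers of cells known to make or bind these factors were measured as well. The summed level of 7 T and innate lymphoid cell markers, from cells known to make GM-CSF and IL-3, ranged from 255 to 387 CPM in infarcts and from 1.43 to 2.03 CPM in cortices. Most of that sum was *Il7r*, the IL-7 receptor, at 269 ± 32.8 CPM in infarcts. *Cd3e*, a chain of the T cell receptor complex, was at 21.2, 6.54, and 5.12 CPM in infarcts 1, 2, and 3, so infarct 1 stood above the others. The sum of 7 eosinophil and mast cell markers ranged from 6.46 to 6.85 CPM in infarcts and from 0.456 to 1.11 CPM in cortices. The sum of 6 dendritic cell markers ranged from 303 to 477 CPM in infarcts and from 19.4 to 20.5 CPM in cortices, but rested on a different gene in each region. In infarcts most of it was *Itgax*, which macrophages also express, at 334 ± 85.4 CPM beside 0.62 ± 0.49 CPM in cortices. In cortices most of it was *Zbtb46*, at 18.4 ± 0.49 CPM beside 14.0 ± 2.46 CPM in infarcts (log2 fold change -0.39, not called). The part of these cells in the β chain results was not tested.

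*Csf3r* (ENSMUSG00000028859, chromosome 4, 126024550 to 126044440, plus strand, GRCm38), the G-CSF receptor, is carried by neutrophils and also by other myeloid cells. It stood at 53.7, 48.5, and 44.9 CPM in infarcts 1, 2, and 3 and at 4.65, 5.21, and 5.35 CPM in contralateral cortices 1, 2, and 3. Libraries of a region were close to each other and the regions lay far apart. Means were 49.0 ± 4.41 and 5.07 ± 0.37 CPM, a rise of 9.69-fold (log2 fold change 3.28, SE 0.17; edgeR quasi-likelihood test, Benjamini-Hochberg adjusted *p* = 3.99e-07). Neutrophil markers were present at low levels. The summed level of 11 markers ranged from 22.8 to 32.2 CPM in infarcts and from 0.105 to 1.29 CPM in cortices. The 6 that passed the filter did so through the infarcts, since none had more than 6 counts in any cortex, and their fitted log2 fold changes of 4.38 to 8.34 give no support to a direction. These fitted values rest on few cortex counts, so they were not ranked against that of *Csf3r*. Of these 6, *Mmp8* had 124, 154, and 127 counts in infarcts 1, 2, and 3, *S100a8* 120, 118, and 91, and *Cxcr2* 69, 43, and 39. *S100a9*, *Ngp*, and *Ltf* had between 10 and 53 counts in each infarct. *Ly6g*, a defining gene of neutrophils, had 0, 2, and 0 counts in infarcts and 0 in every cortex, and *Elane* had 0 in all 6 libraries. *Mpo* and *Retnlg* were likewise at 0 in every cortex. The part of neutrophils in the rise of *Csf3r* was not tested.

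Promoter sequences in the RefSeq table for GRCm38.p6 were matched for 4 of the 7 genes, *Csf1*, *Csf2ra*, *Csf2rb2*, and *Csf3r*. Each window runs from 250 bases before to 50 bases after the start of the gene. They were searched on both strands for GAGGAAG, a purine-rich core of the kind that PU.1 binds, since *Spi1* rose as given above. The window of *Csf1* held no match, and the other 3 did. These are shown 5′ to 3′ along the strand of the gene, with matches in capitals.
Csf2ra, chr19:61228369-61228668, minus strand: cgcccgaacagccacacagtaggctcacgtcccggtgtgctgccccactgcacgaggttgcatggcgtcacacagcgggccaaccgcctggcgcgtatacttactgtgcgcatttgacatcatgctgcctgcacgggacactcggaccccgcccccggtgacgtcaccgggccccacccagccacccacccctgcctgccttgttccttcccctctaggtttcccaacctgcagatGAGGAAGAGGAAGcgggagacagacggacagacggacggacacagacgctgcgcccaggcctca
Csf2rb2, chr15:78305672-78305971, minus strand: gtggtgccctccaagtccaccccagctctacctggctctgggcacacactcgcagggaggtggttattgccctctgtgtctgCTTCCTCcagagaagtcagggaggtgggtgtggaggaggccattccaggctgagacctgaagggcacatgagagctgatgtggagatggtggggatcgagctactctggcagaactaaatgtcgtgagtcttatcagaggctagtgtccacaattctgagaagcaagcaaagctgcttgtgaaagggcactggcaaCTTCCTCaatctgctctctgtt
Csf3r, chr4:126024409-126024708, plus strand: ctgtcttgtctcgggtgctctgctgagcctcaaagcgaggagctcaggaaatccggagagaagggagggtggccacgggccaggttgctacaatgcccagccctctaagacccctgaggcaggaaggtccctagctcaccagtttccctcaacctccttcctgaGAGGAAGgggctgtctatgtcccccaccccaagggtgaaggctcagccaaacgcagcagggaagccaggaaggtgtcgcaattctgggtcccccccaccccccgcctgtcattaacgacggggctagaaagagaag
*Csf2ra* held 2 matches that share bases, just before the start. *Csf2rb2* held 2 matches on the opposite strand, which read as CTTCCTC, and *Csf3r* held 1. Of 32851 windows in the table, 4477 (13.6%) held at least 1 match. A match describes the letters and does not show binding.

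Of 11 tested genes of the JAK-STAT arm, through which GM-CSF and G-CSF receptors signal, 7 rose and 0 fell by edgeR, with a median log2 fold change of 1.07. DESeq2 also called 0 lower, and 0 were lower at an unadjusted *p* under 0.05. *Stat5a*, the transcription factor activated below the β chain, rose from 0.97 ± 0.28 to 13.6 ± 3.91 CPM (log2 fold change 3.80). With 22, 10, and 12 counts in cortices 1, 2, and 3, *Stat5a* passed the filter through the infarcts, so its call gives no support to a direction. *Pim1*, a kinase induced by STAT5, rose from 1.44 ± 0.31 to 17.0 ± 1.81 CPM (log2 fold change 3.54), and *Socs3*, the inhibitor of G-CSF and IL-6 receptor signaling, from 2.79 ± 0.28 to 30.5 ± 5.29 CPM (log2 fold change 3.44). The 4 that were not called were *Jak1* (log2 fold change 0.66), *Socs2* (0.65), *Ptpn11* (0.17), and *Cish* (-0.078). *Cish*, a STAT5-induced inhibitor, was at 3.50 ± 0.73 CPM in infarcts and 3.70 ± 0.27 CPM in cortices, with overlapping regions. *Socs1* reads numbered 20, 5, and 5 for infarcts and 1, 2, and 2 for cortices and was left out by the filter.

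Among 5 tested genes known to respond to GM-CSF in myeloid cells, 4 rose and 1 fell, with a median log2 fold change of 4.41. *Ccl22*, a chemokine of dendritic cells and macrophages, rose from 0.27 ± 0.36 to 12.9 ± 3.87 CPM (log2 fold change 5.31), and *Irf5*, a factor of inflammatory macrophages, from 1.66 ± 0.34 to 44.6 ± 8.37 CPM (log2 fold change 4.72). *Ccl22* had 13, 2, and 0 counts in cortices 1, 2, and 3 and passed the filter through the infarcts. Its call therefore gives no support to a direction. *Irf4* reads numbered 827, 403, and 213 for infarcts 1, 2, and 3 and 38, 25, and 16 for cortices (log2 fold change 4.41, SE 0.60). *Irf4* also marks plasma cells, and the summed level of 4 B and plasma cell markers was 2237, 827, and 247 CPM in the same infarcts, between 1.15 and 3.88 CPM in cortices. The part of plasma cells in the *Irf4* value was not tested. The gene that fell was *Inhba*, an activin subunit also made by neurons, with 3, 8, and 18 counts in the infarcts against 47, 21, and 26 in the cortices (log2 fold change -1.56, SE 0.54; edgeR quasi-likelihood test, Benjamini-Hochberg adjusted *p* = 0.0282). *Inhba* passed the filter through the cortices, and its call was lost when infarct 1, infarct 2, cortex 1 or cortex 3 was left out. *Ccl17* had at most 9 counts in any library and was left out by the filter.

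The wider family of ligands and receptors was mixed. Of 6 tested relatives, 2 rose and 2 fell, beside 25.7% and 20.9% over all tested genes, with a median log2 fold change of -0.49. Those that rose were *Sdc1* and *Il3ra*, and *Il3ra* passed the filter through the infarcts, as given above. *Sdc1*, which encodes syndecan-1, a proteoglycan able to bind IL-34 and a plasma cell marker, rose from 1.45 ± 0.66 to 111 ± 17.7 CPM (log2 fold change 6.31; edgeR quasi-likelihood test, Benjamini-Hochberg adjusted *p* = 2.49e-07). *Ptprz1*, a phosphatase receptor of glia that also binds IL-34, fell from 588 ± 18.1 to 249 ± 55.5 CPM (log2 fold change -1.24, adjusted *p* = 2.58e-04 in edgeR). The known binding partners of IL-34 thus moved in different directions. *Kitl*, which encodes stem cell factor, fell from 227 ± 14.9 to 106 ± 16.5 CPM (log2 fold change -1.09, adjusted *p* = 1.99e-04 in edgeR), and without infarct 3 the value was -0.96, short of the required fold. Its receptor *Kit*, of the same kinase family as *Csf1r*, had 48.7 ± 15.4 CPM in infarcts and 66.5 ± 4.35 CPM in cortices (log2 fold change -0.45, adjusted *p* = 0.102). *Flt3*, another kinase of that family, had 4.30 ± 1.67 and 6.19 ± 1.24 CPM (log2 fold change -0.54, adjusted *p* = 0.164). Both overlapped between regions, and neither passed the test.

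**Figure D4:**
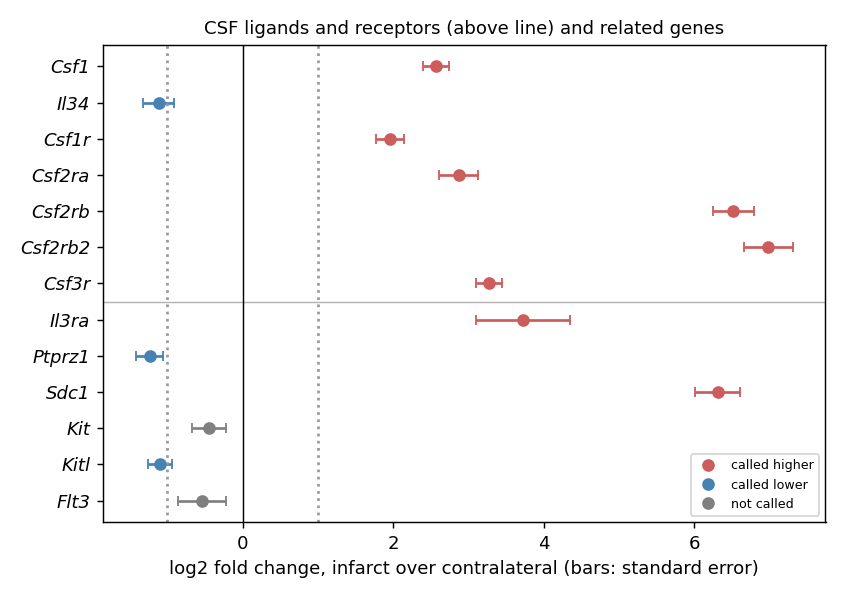
Log2 fold change of infarcts over contralateral cortices with its standard error for the 7 genes, above the line, and for 6 tested relatives, with dotted lines at the fold threshold. *Il34*, *Ptprz1*, and *Kitl* lie just past the threshold on the lower side, while *Csf2rb*, *Csf2rb2*, and *Sdc1* lie beyond 6.

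**Figure D5:**
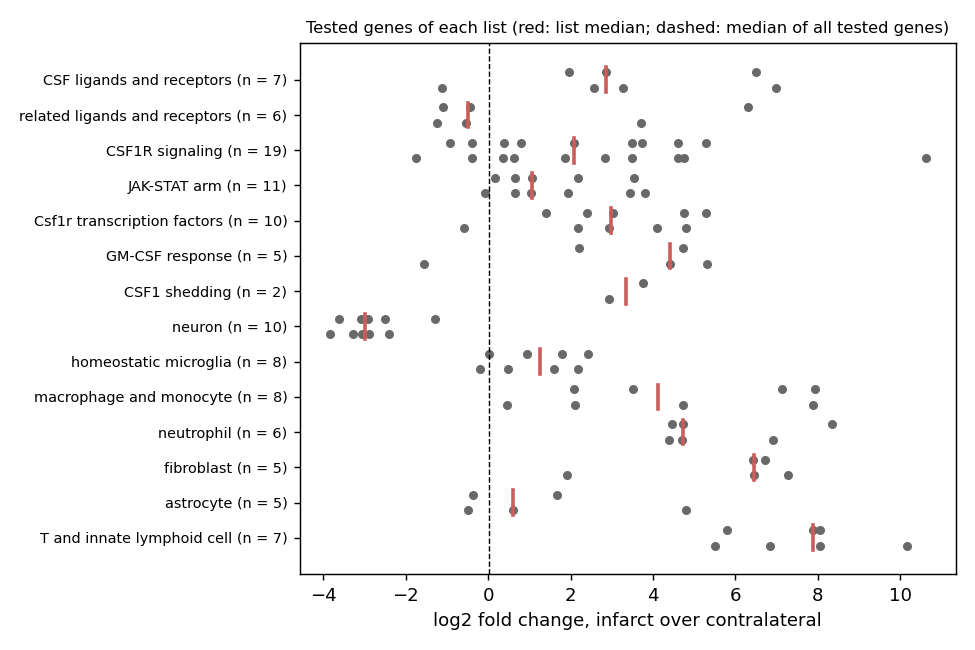
Log2 fold change of each tested gene in the lists, 1 point per gene, with a red bar at the median of a list and a dashed line at the median of all tested genes, 0.030. Fitted values against cortices at or near 0 counts depend on the fit. The median of the 7 CSF genes is 2.87, that of the neuron markers is -2.98, and the related ligands and receptors center on -0.49.

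Ordered by level per kilobase of exon, the set differed between regions. In contralateral cortices, *Csf1r* came first at 20.5 ± 3.59 CPM per kilobase and *Il34* followed at 13.7 ± 1.49, without overlap. *Csf1* at 2.08 ± 0.21, *Csf3r* at 1.41 ± 0.10, and *Csf2ra* at 1.34 ± 0.51 came next. *Csf2ra* overlapped both *Csf3r* and *Csf1*. *Csf2rb2* at 0.263 ± 0.139 and *Csf2rb* at 0.224 ± 0.070 were last and overlapped each other. In infarcts, *Csf1r* again came first, at 79.5 ± 12.1 CPM per kilobase. It was followed by *Csf2rb2* at 31.4 ± 2.88 and *Csf2rb* at 20.0 ± 4.35, which had been last in cortices. *Csf3r* at 13.6 ± 1.22 and *Csf1* at 12.3 ± 1.55 overlapped each other, and *Csf2ra* at 9.95 ± 0.74 lay just below them. *Il34* at 6.32 ± 1.54 moved from second place to last, below all 3 infarcts of every other gene in the set.

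The tested genes whose pattern over the 6 libraries was most like each of the 7 were found by the distance between log2 levels centered on each gene's own mean. Nearest to *Csf1* was *Crispld2*, at a distance of 0.211 log2 units and with a log2 fold change of 2.77. Nearest to *Il34* was *Ablim3* (distance 0.164, log2 fold change -1.11), and nearest to *Csf1r* was *F11r* (distance 0.184, log2 fold change 1.98). Nearest to *Csf2rb* was *Cxcl16*, a chemokine of macrophages and dendritic cells (distance 0.242, log2 fold change 6.44). *Atoh8* was nearest to *Csf2ra* (distance 0.255, log2 fold change 3.74), and *Sh3pxd2b* to *Csf3r* (distance 0.136, log2 fold change 3.10). The next nearest were *Tns4* and *Fgfr1* for *Csf1*, *Higd1a* and *4833445I07Rik* for *Il34*, *Nucb1* and *H3f3b* for *Csf1r*, *9930111J21Rik1* and *Lrig3* for *Csf2ra*, *Tnfaip2* and *Cyp1b1* for *Csf2rb*, *Capg* and *B430306N03Rik* for *Csf2rb2*, and *Wipf1* and *Adamtsl3* for *Csf3r*.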

How the data were processed

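The 6 libraries are messenger RNA from 3 infarcts and 3 contralateral cortices at 7 weeks after stroke. The deposited tables hold raw counts per Ensembl gene, which the authors made from stranded mRNA libraries by trimming with Trimmomatic 0.32, aligning to GRCm38 with STAR 2.5.2b and counting with htseq-count (tools and versions per the submitters' processing notes). Which annotation, strand setting and version of htseq-count they used is not given in the sources used here. Each table holds 5 tallies without a gene, which took 26.6% to 34.3% of a library and did not enter library sizes or tests. Symbols, positions and exon lengths came from GENCODE M21 on GRCm38, which matched 45229 identifiers and not the other 849.

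Counts were analyzed with edgeR 4.0.16 in R 4.3.3, using filterByExpr, TMM scaling and robust quasi-likelihood tests (glmQLFit and glmQLFTest) with region as the only term. Genes were called at a Benjamini-Hochberg adjusted *p* under 0.05 over 15554 tested genes with a log2 fold change beyond 1. The standard error is the absolute log2 fold change divided by the square root of its F statistic. Levels per kilobase divide scaled CPM by the union of a gene's exons. Marker comparisons used log2(CPM + 0.5), and that of *Csf3r* with neutrophil markers is not reported, since the added 0.5 set the marker level in cortices. Lower bounds set libraries of a region with 3 counts or fewer each to 3 counts, and cover counting error only. The coding sequences were aligned with Biopython 1.88, plots were drawn with matplotlib 3.10.9, and the fit was tested on simulated data.

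The named genes are the 7 genes, their listed relatives, up to 3 called genes with the largest rise and up to 3 with the largest fall from each other pathway list, genes not called where a list had 5 or fewer, and the 3 genes nearest to each of the 7. Of markers, those at 0 were to be named. *P2ry12*, *Siglech*, *Ly6g*, *Gfap*, *Aqp4*, *Aldh1l1*, *Slc1a3*, *Il7r*, *Cd3e*, *Itgax*, and *Zbtb46* were picked with their values known, as were the overlapping genes *Hmgxb3*, *Gm15894*, and *Gm15895*. The neutrophil markers that passed the filter and the macrophage and monocyte markers low in cortices were also named with their values known. *Flt3l* was not analyzed here. Some genes that the rule covers are not reported here. The members and lists were chosen with earlier results of these data known. Alternatives were DESeq2 1.42.0, limma voom 3.58.1, scaling by RLE, upper quartile or library totals, other filters on low counts, no fold threshold, glmTreat, thinned counts, the replicate number as a block, each library left out, and ratios without exon length. Ratios with exon length counted in 75-base stretches found in no other gene were added after seeing the data.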

Additional observations from a re-analysis of the deposited data

How the results depend on the processing

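The 6 genes that rose kept their direction and call in all 17 alternatives. With library totals or glmTreat, 0 of the 7 genes was called lower, and leaving out 1 library gave 0 to 1. With library totals, 1 related ligand or receptor was lower in infarcts and 0 GM-CSF response genes were. Library totals raised the median log2 fold change of all tested genes from 0.030 to 0.23. Leaving out 1 library gave 1 to 2 lower among related genes, 1 to 2 in CSF1R signaling, and 0 to 1 among GM-CSF response genes. With no fold threshold, 4 genes of CSF1R signaling and 1 *Csf1r* transcription factor were lower. Over all tested genes, 3999 were higher and 3256 lower, beside 4434 and 3550 with DESeq2. *Ptprz1* and *Kitl* were not called by glmTreat (adjusted *p* = 0.0955 and 0.263), nor *Kitl* with library totals (-0.89).

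Without exon length, the mean log2 ratio of *Csf1* to *Il34* was 2.41 in infarcts and -1.29 in cortices, that of *Csf2rb2* to *Csf2rb* was 0.0546 and -0.49, and that of *Csf2ra* to the summed β chains was -3.36 and 0.43. The *Csf2rb2* to *Csf2rb* ratio in cortices changed sign by construction, since the genes differ in exon length. It ranged from -0.0222 to 0.41 when 1 library was left out, the lowest without cortex 2 or 3, and the ratio of *Csf2ra* to the β chains in cortices from 0.90 to 1.93. Cortex levels of the β chains rest on 12 to 25 counts.

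Correlations could not settle whether replicate numbers pair the samples, since infarct and cortex of the same mouse need not deviate alike. Deviations of same-numbered infarcts and cortices correlated at -0.21, 0.11, and 0.023, and not every sample correlated best with its own number. With the number as a block, 6 of the 7 genes were higher and 1 was lower, and over all genes 3945 were higher and 3222 lower.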
